A study of Mus musculus with 3 samples.

Results

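The glutathione transferases and the antioxidant genes tied to the transcription factor NRF2 were followed across 3 two-colour microarrays of mouse liver. The group held 39 genes, chosen by name: 18 glutathione transferases, 6 genes of glutathione supply and cycling, 7 enzymes known as NRF2 targets or as suppliers of NADPH, 6 enzymes that remove peroxide or superoxide, and the regulators Nfe2l2 and Keap1. Of these, 36 had a row in the deposited table, each with a single probe, and 34 had a value on all 3 arrays, out of 10179 named genes with a value on all 3. Gpx1 was blank on every array, Slc7a11 was blank for untreated TMX-null liver, and Gstm6, G6pdx and Gpx4 matched no row.

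The Cy3 channels held liver of female C57BL/6 TMX-/- mice after lipopolysaccharide and D-galactosamine (LPS/GalN), liver of wild-type (WT) females of that strain after LPS/GalN, and liver of untreated TMX-/- females. The Cy5 channel of every array held untreated WT liver, so each deposited value is a log ratio to that liver. TMX is a membrane-anchored relative of thioredoxin that sits in the endoplasmic reticulum. How its gene was disrupted is not given in the labels. LPS/GalN, given into the peritoneum at 3 ng LPS with 10 mg GalN and followed for 24 h, is a model of acute inflammatory liver injury in which GalN sensitises hepatocytes. Each group was 1 array, the number of mice behind a channel is not given, and no dyes were exchanged. Because the reference is shared, a like value on every array is not a set of independent readings.

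Glutathione is the main small thiol of the hepatocyte. Glutathione transferases couple it to reactive compounds, and the liver is one of the tissues richest in them. NRF2, encoded by Nfe2l2, is held down by KEAP1 and, once released under oxidative or electrophilic stress, drives many of these genes through antioxidant response elements in their regulatory DNA, together with the enzymes that make glutathione and regenerate NADPH.

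All values below are log2 ratios, centred on the median of the named genes, and positive values are read as higher in the Cy3 liver. The labels do not give the numerator. The reading rests on Tmx1, the gene of the TMX protein, which stood at -3.88 in treated TMX-null, at 0.59 in treated WT and at -2.96 in untreated TMX-null liver, rank 1 from the lowest there. With the other numerator every direction turns. With 1 array a group no test was possible, and no spread between mice is known. The error at hand is the SD of a single probe, taken from 81 genes with 2 probes, which was 0.76 in treated TMX-null, 0.42 in treated WT and 0.42 in untreated TMX-null liver. For the differences between arrays it was 0.67 for treated against untreated TMX-null liver and 0.59 for treated TMX-null against treated WT liver. Differences smaller than these are not read as differences, and 2-fold (a log2 value of 1) is the size used for counting.

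Treated TMX-null liver held most of the members at 2-fold. There 12 of the 35 members with a value were at least 2-fold lower than in untreated WT liver and 7 were at least 2-fold higher, against 13.2% and 13.6% of all named genes (26.8% either way). The lower ones were 10 transferases, catalase and Sod1. The higher ones were Hmox1, Srxn1, Gsta2, Gpx3, Gclc, Gsr and Pgd. In treated WT liver 2 of 35 members, Gsta2 and Gclc, were 2-fold higher and 0 were lower, against 2.8% and 1.75% of the background (4.55% either way). Untreated TMX-null liver had 0 of 34 members at 2-fold, where 1.78% of the named genes were higher and 0.835% lower (2.61% either way). The treated TMX-null array had the widest spread, with an SD over named genes of 1.04, against 0.48 in treated WT liver. With arrays scaled to the same spread, 8 members were lower and 5 higher in treated TMX-null liver, where 5.5% and 4.97% of all genes were, and 3 were lower and 6 higher in treated WT liver, where 4.19% and 5.84% were.

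**Figure D1:**
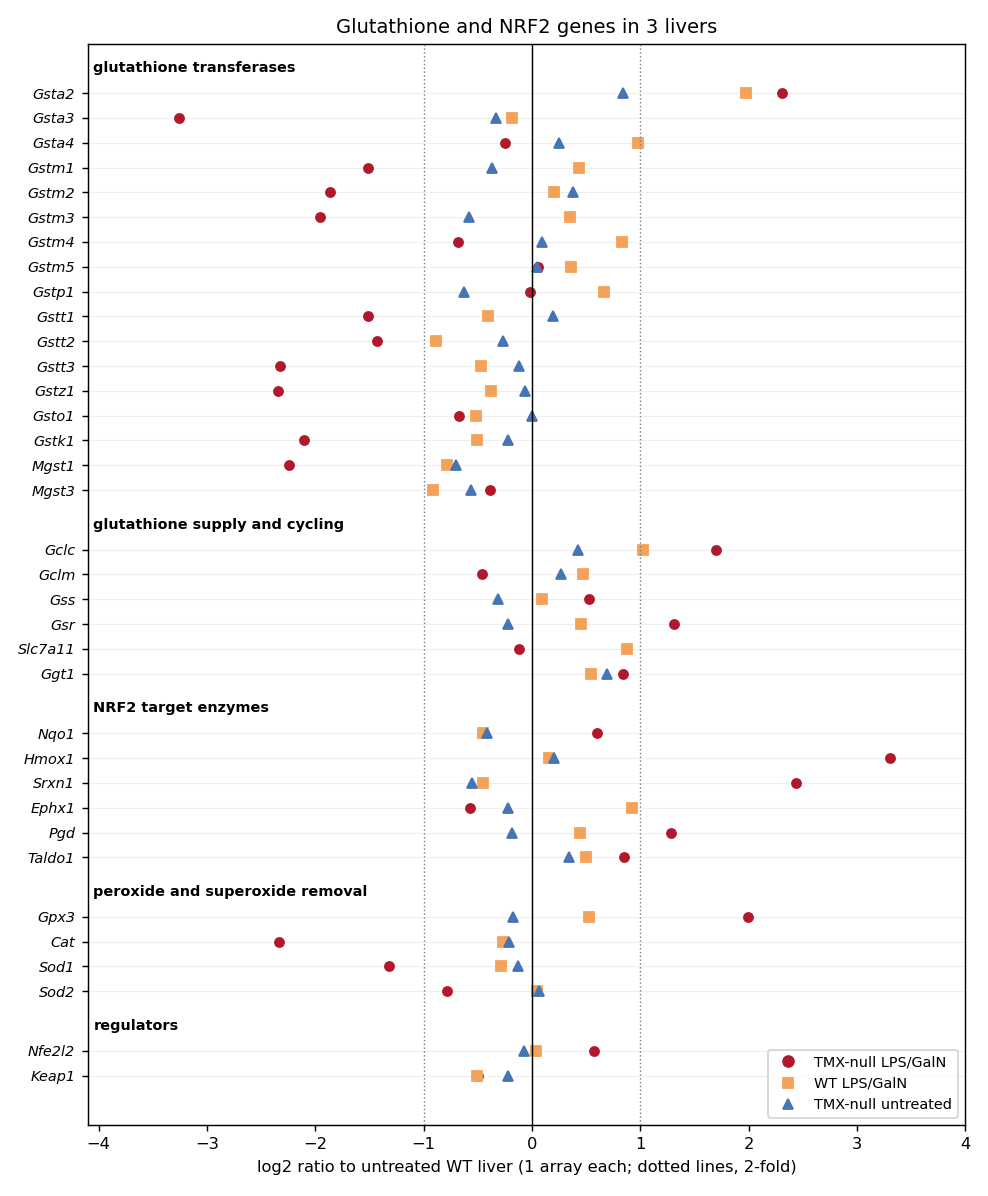
Each row is a member gene and each symbol its log2 ratio to untreated WT liver on 1 array, for treated TMX-null (circles), treated WT (squares) and untreated TMX-null liver (triangles), with dotted lines at 2-fold. The circles spread from -3.26 (Gsta3) to 3.31 (Hmox1), while squares and triangles stay between -0.92 and 1.98.

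The bases upstream of the members were searched because the genes share a known regulator. Windows from 250 bases before to 50 after the annotated start came from RefSeq (build GRCm38.p6) and matched 34 of the 39 members. Gsta4, Gstt2, Gclc, Gsr and Hmox1 were not matched. The core of the antioxidant response element, TGACNNNGC on either strand, was in a window of 10 of the 34 members (29.4%), against 14.0% of the 27025 genes with a window. The AP-1 site TGAGTCA, on either strand, was in 3 of 34 (8.82%), against 5.95% of genes. Its carriers stood at 2.44 (Srxn1), 0.05 (Gstm5) and -0.02 (Gstp1) in treated TMX-null liver, and the sites of Gstm5 and Gstp1 are not shown. The members had been chosen with NRF2 in mind, so this share is a description. The stretches shown are those of 4 members with a core before the start (Gclm, Gsta3, Mgst1 and Sod1), chosen with their values known to hold every 2-fold lower member with one, and of Srxn1, which carries 2 AP-1 sites before its start. Nfe2l2, Gstm5, Ggt1 and G6pdx also have a core before the start and are not shown. Of these Nfe2l2 (0.58), Gstm5 (0.05) and Ggt1 (0.84) lay above 0 in treated TMX-null liver, and G6pdx has no value. Each is written 5′ to 3′ on the gene's strand, and capitals mark the match.
Srxn1, chr2:152105402-152105505, plus strand: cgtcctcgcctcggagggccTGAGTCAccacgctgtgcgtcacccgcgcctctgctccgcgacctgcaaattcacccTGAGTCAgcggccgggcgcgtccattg
Gclm, chr3:122245378-122245476, plus strand: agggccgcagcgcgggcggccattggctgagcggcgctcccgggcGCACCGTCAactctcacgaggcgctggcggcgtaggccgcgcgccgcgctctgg
Gsta3, chr1:21240419-21240517, plus strand: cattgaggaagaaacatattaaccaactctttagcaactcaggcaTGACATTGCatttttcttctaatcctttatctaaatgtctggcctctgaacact
Mgst1, chr6:138140426-138140524, plus strand: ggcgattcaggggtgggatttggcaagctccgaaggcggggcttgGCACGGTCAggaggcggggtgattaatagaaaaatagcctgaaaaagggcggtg
Sod1, chr16:90220661-90220759, plus strand: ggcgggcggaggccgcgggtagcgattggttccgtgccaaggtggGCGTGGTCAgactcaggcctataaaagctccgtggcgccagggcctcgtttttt
In Srxn1 the capitals are the AP-1 sites, which begin at positions -102 and -45 from the start. In Gclm, Mgst1 and Sod1 the core reads on the opposite strand.

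Members with the core lay on both sides of untreated WT liver. Of the 9 members with a core and a value in treated TMX-null liver, 2 (Srxn1 and Pgd, where it lies just after the start) were at least 2-fold higher and 3 (Gsta3, Mgst1 and Sod1) at least 2-fold lower. Of the 21 members with a window but no core, 2 were higher and 8 lower. Over all named genes 13.6% were higher and 13.2% lower. A match is a run of letters and not a shown binding site, and known elements of several of these genes lie further upstream than the window reaches.

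Among the alpha class, members lay at opposite ends. Gsta2 stood at 2.31 in treated TMX-null, 1.98 in treated WT and 0.84 in untreated TMX-null liver, so it was above untreated WT liver on every array, by 4.96-fold in treated TMX-null and 3.93-fold in treated WT liver. It ranked 14 from the highest of all named genes in treated WT liver. Gsta1 and Gsta13, alpha genes outside the members, matched no row, and whether the Gsta2 probe separates them was not checked. Gsta3 stood at -3.26 in treated TMX-null, -0.18 in treated WT and -0.33 in untreated TMX-null liver. It was the lowest member, 9.58-fold below untreated WT liver in treated TMX-null liver and rank 51 from the lowest of all named genes there, while its other values lay within the SD of a probe. Gsta4, whose enzyme conjugates the lipid peroxidation product hydroxynonenal, stood at -0.25 in treated TMX-null, 0.98 in treated WT and 0.25 in untreated TMX-null liver. It was thus highest in treated WT liver, close to 2-fold.

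The mu class transferases are encoded side by side on mouse chromosome 3, and their messages are similar enough that probes may not separate them. Gstm3 stood at -1.96 in treated TMX-null, 0.35 in treated WT and -0.59 in untreated TMX-null liver. Gstm2 stood at -1.86 in treated TMX-null, 0.20 in treated WT and 0.38 in untreated TMX-null liver, and Gstm1 at -1.51 in treated TMX-null, 0.44 in treated WT and -0.37 in untreated TMX-null liver. All of these were 2-fold lower in treated TMX-null liver only among the 3 arrays. Gstm4, at -0.68 in treated TMX-null, 0.83 in treated WT and 0.09 in untreated TMX-null liver, was under 2-fold on each array. Gstm5, at the edge of the cluster, stood at 0.05 in treated TMX-null, 0.36 in treated WT and 0.04 in untreated TMX-null liver and differed from untreated WT liver by less than the SD of a probe on each array. Of the other genes in this row, Gstm7, not a member, stood at -2.61 in treated TMX-null, -0.64 in treated WT and -0.54 in untreated TMX-null liver. The 5 measured mu members were all above 0 in treated WT liver, where 5089 of 10179 named genes were. Their median was 0.36 in treated WT and -1.51 in treated TMX-null liver.

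The theta class lies in a row on chromosome 10 between Ddt and Mif. Gstt3 stood at -2.32 in treated TMX-null, -0.47 in treated WT and -0.12 in untreated TMX-null liver. Gstt1 stood at -1.52 in treated TMX-null, -0.41 in treated WT and 0.20 in untreated TMX-null liver, and Gstt2 at -1.43 in treated TMX-null, -0.88 in treated WT and -0.27 in untreated TMX-null liver. All 3 theta members lay below 0 in treated WT liver, Gstt2 at -0.88 and Gstt3 at -0.47 by more than the SD of a probe (0.42). The mu members lay above 0 there, but Gstm2, Gstm3 and Gstm5 within that SD, as was Gstt1 below 0. Outside the members the signs were turned, with the mu gene Gstm7 at -0.64 and the theta gene Gstt4 at 1.54 in treated WT liver. Their neighbour Ddt, which encodes D-dopachrome tautomerase, stood at -1.82 in treated TMX-null, -0.73 in treated WT and -0.32 in untreated TMX-null liver. Mif, which encodes a related cytokine, stood at 0.50 in treated TMX-null, 0.25 in treated WT and 0.28 in untreated TMX-null liver and lay within the SD of a probe on every array.

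**Figure D2:**
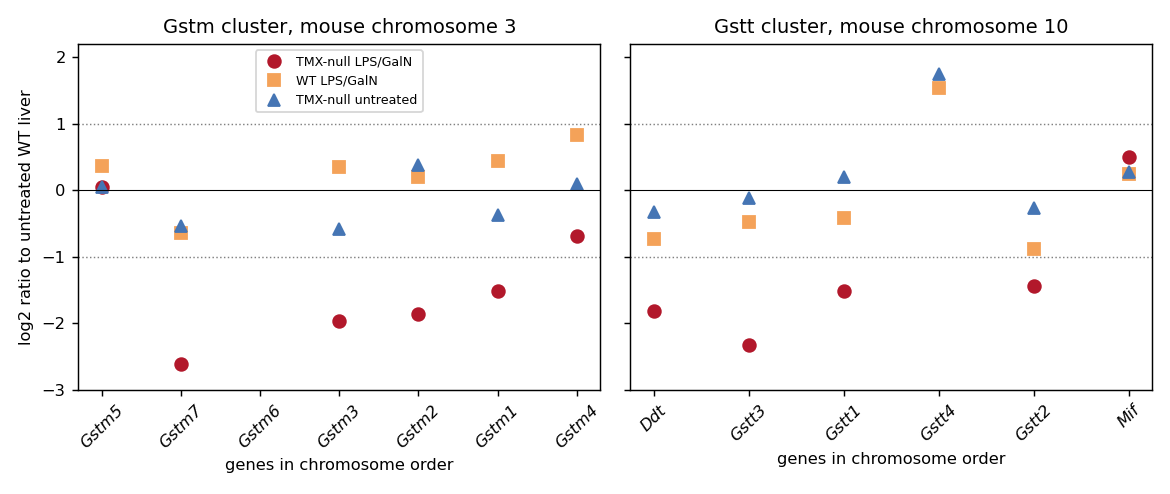
Log2 ratios to untreated WT liver of the genes of the mu (left) and theta (right) transferase clusters, in chromosome order, for treated TMX-null (circles), treated WT (squares) and untreated TMX-null liver (triangles). The circles of Gstm7, Gstm3, Gstm2 and Gstm1 and of Ddt, Gstt3, Gstt1 and Gstt2 lie below the dotted 2-fold line, while Gstm4, Gstm5 and Mif do not. Gstm6 has no value, and Gstt4 has none in treated TMX-null liver.

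Of the remaining transferases, Gstz1, Gstk1 and Mgst1 were low in treated TMX-null liver too. Mgst3, Gsto1 and Gstp1 lay within the SD of a probe there (0.76). Gstz1, the maleylacetoacetate isomerase of tyrosine breakdown, stood at -2.34 in treated TMX-null, -0.38 in treated WT and -0.06 in untreated TMX-null liver. Gstk1, the kappa transferase of mitochondria and peroxisomes, stood at -2.10 in treated TMX-null, -0.50 in treated WT and -0.22 in untreated TMX-null liver. Mgst1, the membrane-bound transferase of the endoplasmic reticulum and outer mitochondrial membrane, stood at -2.25 in treated TMX-null, -0.79 in treated WT and -0.70 in untreated TMX-null liver and so lay below untreated WT liver by more than the SD of a probe on every array. Mgst3, another membrane-bound member, stood at -0.39 in treated TMX-null, -0.92 in treated WT and -0.56 in untreated TMX-null liver. Gsto1, the omega transferase, stood at -0.68 in treated TMX-null, -0.52 in treated WT and -0.00 in untreated TMX-null liver. Gstp1, the pi transferase, which has a near-identical neighbour in Gstp2, stood at -0.02 in treated TMX-null, 0.66 in treated WT and -0.62 in untreated TMX-null liver, and Gstp2 at 0.31 in treated TMX-null, 0.77 in treated WT and -0.31 in untreated TMX-null liver. Both pi genes lay higher in treated WT than in untreated TMX-null liver, by 1.29 for Gstp1 and 1.08 for Gstp2 against an SD of a probe of 0.38. Over the 17 measured transferases, 13 had their lowest value in treated TMX-null liver, counted whether or not the gap passed the SD of a probe. The same count over all named genes was not made. That array had the widest spread, so the 13 are not read as particular to transferases.

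Of the 6 genes of glutathione supply and cycling, 4 lay above 0 in treated TMX-null liver, where 5089 of 10179 named genes did. Gclc, Gsr and Ggt1 did so by more than the SD of a probe there (0.76). Among Gclc, Gclm, Gss and Slc7a11, which make glutathione or import cystine, only Gclc did. Gclc, the catalytic subunit of the rate-limiting glutamate-cysteine ligase, stood at 1.70 in treated TMX-null, 1.02 in treated WT and 0.43 in untreated TMX-null liver, and was 3.26-fold above untreated WT liver in treated TMX-null liver. Gclm, the modifier subunit of the same enzyme, stood at -0.46 in treated TMX-null, 0.47 in treated WT and 0.27 in untreated TMX-null liver. The value of Gclm in treated TMX-null liver lay within the SD of a probe, and that of Gclc did not. Gsr, which reduces oxidised glutathione, stood at 1.31 in treated TMX-null, 0.45 in treated WT and -0.22 in untreated TMX-null liver. Gss, glutathione synthetase, stood at 0.53 in treated TMX-null, 0.09 in treated WT and -0.31 in untreated TMX-null liver, within the SD of a probe on each array. Ggt1, which breaks glutathione down outside the cell, stood at 0.84 in treated TMX-null, 0.55 in treated WT and 0.69 in untreated TMX-null liver. These were above the SD of a probe on every array, but all share the reference. Treated TMX-null liver differed by 0.15 from untreated TMX-null and by 0.29 from treated WT liver for Ggt1, each less than the SD of a probe. Slc7a11, the cystine importer, stood at -0.12 in treated TMX-null and 0.87 in treated WT liver. All 6 supply genes were above 0 in treated WT liver, where 5089 of 10179 named genes were. Gss did so by less than the SD of a probe. Set against untreated TMX-null liver, treated WT liver had 4 of 5 supply genes above 0, with Ggt1 at -0.14.

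Of the NRF2 target enzymes, Hmox1 and Srxn1 stood far above the rest in treated TMX-null liver. Hmox1, the inducible heme oxygenase, stood at 3.31 in treated TMX-null, 0.16 in treated WT and 0.21 in untreated TMX-null liver, 9.90-fold above untreated WT liver and rank 37 from the highest of all named genes. Srxn1 encodes sulfiredoxin, which reactivates overoxidised peroxiredoxins. It stood at 2.44 in treated TMX-null, -0.46 in treated WT and -0.56 in untreated TMX-null liver. Both were high in treated TMX-null liver alone among the 3 arrays. Nqo1, the quinone reductase often used as a reporter of NRF2 activity, stood at 0.60 in treated TMX-null, -0.46 in treated WT and -0.42 in untreated TMX-null liver and was under 2-fold on each. Ephx1, the microsomal epoxide hydrolase, ran the other way, at -0.58 in treated TMX-null, 0.92 in treated WT and -0.22 in untreated TMX-null liver. In the pentose phosphate pathway, which regenerates NADPH, Pgd stood at 1.29 in treated TMX-null, 0.44 in treated WT and -0.19 in untreated TMX-null liver and Taldo1 at 0.85 in treated TMX-null, 0.50 in treated WT and 0.34 in untreated TMX-null liver. Pgd lay above both other livers by more than the SD of a probe, and Taldo1 above neither.

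The enzymes that remove peroxide and superoxide were split. Cat, the peroxisomal catalase, stood at -2.34 in treated TMX-null, -0.27 in treated WT and -0.21 in untreated TMX-null liver. Sod1, the cytosolic superoxide dismutase, stood at -1.32 in treated TMX-null, -0.29 in treated WT and -0.13 in untreated TMX-null liver, and Sod2, its mitochondrial counterpart, at -0.78 in treated TMX-null, 0.05 in treated WT and 0.06 in untreated TMX-null liver. Gpx3, the secreted plasma glutathione peroxidase, stood at 2.00 in treated TMX-null, 0.53 in treated WT and -0.17 in untreated TMX-null liver. Gpx3 was the only one of the 4 measured genes of this kind above 0 in treated TMX-null liver. The regulators lay closer to 0 than these in treated TMX-null liver, but not on every array. Nfe2l2 stood at 0.58 in treated TMX-null, 0.04 in treated WT and -0.07 in untreated TMX-null liver, within the SD of a probe on each array. Keap1 stood at -0.50 in treated TMX-null, -0.51 in treated WT and -0.22 in untreated TMX-null liver. In treated WT liver Keap1 passed the SD of a probe (0.42) and lay further from 0 than Cat, Sod1 and Sod2.

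The response to LPS/GalN was then read within each genotype. For TMX-null liver the untreated array was subtracted from the treated one, which removes a reference that both share. Here 8 of 34 members were at least 2-fold higher and 12 at least 2-fold lower, against 11.4% and 12.1% of all named genes (23.5% either way). The transferase median was -1.16, with 10 of 17 lower and Gsta2 alone higher at 1.47. NRF2 target enzymes had a median of 1.25, with 4 of 6 higher, and glutathione supply genes one of 0.84, with 2 of 5 higher. Hmox1 (3.10), Srxn1 (3.00) and Gpx3 (2.17) were the highest members and Gsta3 (-2.93), Gstz1 (-2.28) and Gstm2 (-2.24) the lowest. The median of all genes was -7.0e-04. The arrays differ in spread, with SDs over all named genes of 1.04 in treated and 0.40 in untreated TMX-null liver. With all arrays scaled to the same spread the transferase median was -0.46, while Srxn1 stood at 2.39 and Gsta3 at -1.48.

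In WT liver fewer members passed 2-fold. Transferases had a median of -0.18 with 8 of 17 above 0, supply genes one of 0.51 and NRF2 target enzymes one of 0.30. Gsta2 (1.98) and Gclc (1.02) were the members past 2-fold, and Gclc was under 2-fold without the centring used here. With arrays scaled to the same spread, 6 members were at least 2-fold higher and 6 lower for treated against untreated TMX-null liver, where 6.56% and 7.39% of all genes were, beside the 6 and 3 in treated WT liver. With that scaling Gsta2 stood at 0.10 for the TMX-null response and 2.62 for the WT response, Gclc at 0.37 for TMX-null and 1.36 for WT, and the supply median at 0.37 for TMX-null and 0.67 for WT. When treated WT liver was set against untreated TMX-null liver, in which genotype differs but reference and dye cancel, 3 of 34 members were at least 2-fold higher, where 2.08% of all genes were (4.07% either way). They were Gstp1 (1.29), Gsta2 (1.14) and Ephx1 (1.14), and Gclc stood at 0.60. Gsta2 was the one member at 2-fold in both readings.

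**Figure D3:**
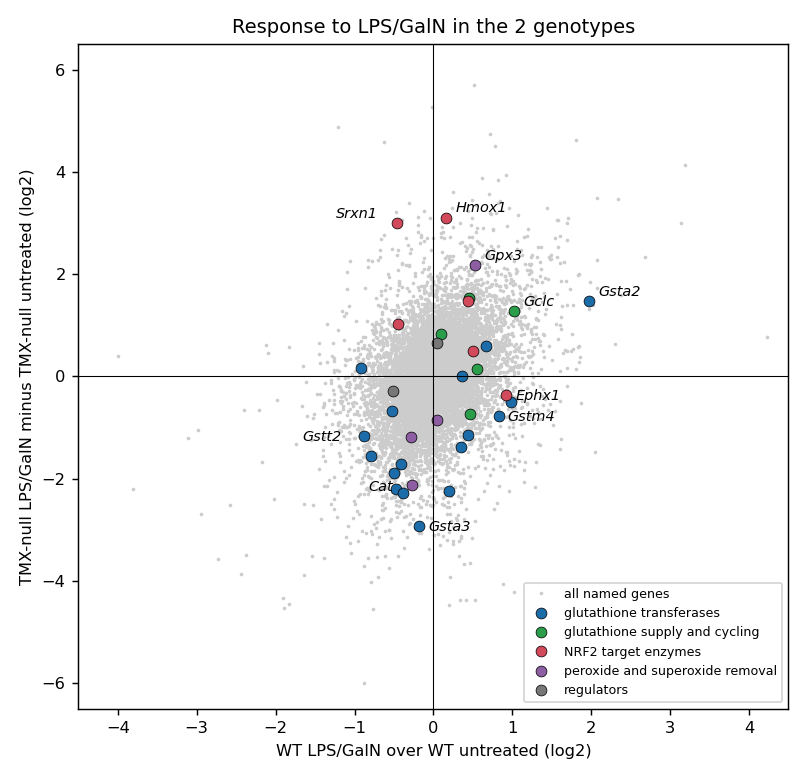
The response to LPS/GalN of each gene in WT liver (x axis, log2) and in TMX-null liver (y axis, log2), with all named genes in grey and the members in colour by role. Hmox1 and Srxn1 lie near the top with WT values of 0.16 and -0.46, most transferases lie below 0 on the y axis, and Gsta2 lies to the right with 1.98 in WT and 1.47 in TMX-null liver.

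The 2 treated livers were then compared. In treated TMX-null against treated WT liver 14 of 35 members were at least 2-fold lower and 4 higher, against 10.6% and 9.64% of all named genes (20.3% either way). The 11 transferases among the lower ones were Gsta3 (-3.08), Gstm3 (-2.31), Gstm2 (-2.07), Gstz1 (-1.96), Gstm1 (-1.95), Gstt3 (-1.85), Gstk1 (-1.60), Gstm4 (-1.51), Mgst1 (-1.46), Gsta4 (-1.22) and Gstt1 (-1.11). Cat (-2.07), Ephx1 (-1.50) and Sod1 (-1.04) were lower as well. Slc7a11 lay just under 2-fold lower. Hmox1 (3.15), Srxn1 (2.90), Gpx3 (1.47) and Nqo1 (1.06) were the 4 higher members. Gsta2 differed by 0.34, less than the SD of a probe, but by -1.20 with arrays scaled to the same spread. The medians were -1.46 for transferases, 0.95 for NRF2 target enzymes and 0.36 for glutathione supply, and the last was -0.26 with equal spread. The transferase median thus lay 2.41 below that of the NRF2 target enzymes in treated TMX-null against treated WT liver.

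**Figure D4:**
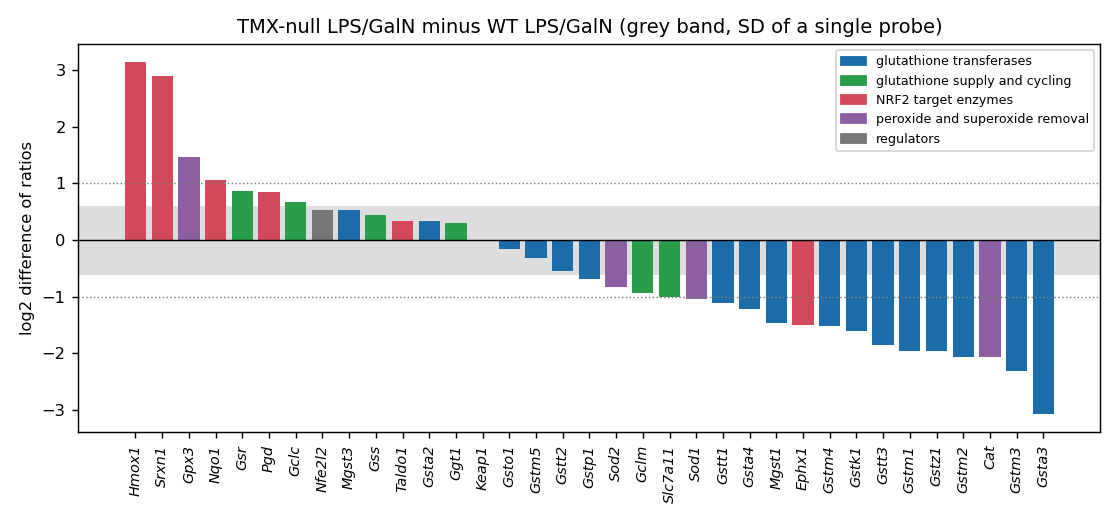
Bars give, for each of the 35 measured members, the log2 ratio in treated TMX-null liver minus that in treated WT liver, coloured by role, with dotted lines at 2-fold and a grey band for the SD of a single probe (0.59). Hmox1 (3.15) and Srxn1 (2.90) stand at the left end, and transferases fill most of the right end down to Gsta3 (-3.08).

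The responses of the 2 genotypes were also subtracted, a value in which the reference enters once. Here 7 of 34 members were at least 2-fold higher in TMX-null liver and 13 at least 2-fold lower, against 9.82% and 11.6% of all genes (21.4% either way). Srxn1 (3.45) was the highest and Gsta3 (-2.74) the lowest. Mgst3 (1.09) was the one transferase on the higher side, and 10 of 17 were at least 2-fold lower. The other 6 were under 2-fold: Mgst1 (-0.76), Gsta2 (-0.50), Gstm5 (-0.35), Gstt2 (-0.28), Gsto1 (-0.15) and Gstp1 (-0.06). With arrays scaled to the same spread Gsta2 stood at -2.53, Mgst1 at 0.77 and Gstt2 at 0.72.

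Other genes of the same pathways were listed by role rather than by value. Of 9 further transferases only Gstm7 and Gstp2 had a value on all 3 arrays, and 5 had a row. Of the 26 further NRF2 targets measured in treated TMX-null liver, 6 were at least 2-fold higher and 5 lower, against 13.6% and 13.2% of all named genes. Their median was -0.04. The higher ones included Nupr1 (2.48), a stress-induced chromatin protein, and Akr1b8 (2.43), an aldo-keto reductase. Akr1b8 stood at 2.43 in treated TMX-null, -0.35 in treated WT and 0.26 in untreated TMX-null liver. The lowest was Adh7 (-2.40). NRF2 targets as a wider list were thus on both sides of 0 in treated TMX-null liver.

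The list of cysteine supply and use held genes on both sides of cysteine. Of the 8 genes of cysteine supply and use measured in treated TMX-null liver, 7 lay below the 2-fold line, against 13.2% of all named genes. The list's median there was -2.28. Cth, the cystathionase that releases cysteine, stood at -4.43 in treated TMX-null, -0.83 in treated WT and -0.88 in untreated TMX-null liver, and Mat1a, which makes S-adenosylmethionine in liver, at -3.69 in treated TMX-null, -0.78 in treated WT and -0.67 in untreated TMX-null liver. Low too were Csad (-2.55) and Cdo1 (-1.65), which take cysteine towards taurine, and Gnmt (-2.49), which uses up S-adenosylmethionine. The exception was Mtr, methionine synthase, at 1.24. The list's median was -0.77 in treated WT liver, where 2 of 8 were 2-fold lower, and -0.52 in untreated TMX-null liver, where 1 of 7 was. Over all named genes 1.75% were 2-fold lower in treated WT and 0.835% in untreated TMX-null liver.

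Genes of glutathione breakdown and of glutathione-dependent steps showed less. Of 15 measured in treated TMX-null liver, 0 were at least 2-fold higher and 3 lower, with a median of 0.09. Over all named genes 13.6% were higher and 13.2% lower in that liver, and the lists that follow here are to be read beside the same shares. The lower ones were Hagh (-2.25), Ggt6 (-2.16) and Glo1 (-1.55). Glo1 and Hagh are the successive enzymes that clear methylglyoxal with glutathione. Slc3a2, the partner of Slc7a11 in the cystine importer, was the highest at 0.99. Among 7 further peroxide-removing genes 1 was higher, Gpx8 (1.23), and 2 lower, Prdx6 (-1.27) and Prdx4 (-1.13). Of the 7 measured partners and regulators of NRF2, Maff, a small MAF protein, was the one at 2-fold, with 1.87 in treated TMX-null, 0.93 in treated WT and 0.31 in untreated TMX-null liver.

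Markers of cell types were read beside these genes. Of 10 measured hepatocyte markers 7 were at least 2-fold lower in treated TMX-null liver, against 13.2% of all named genes. Their median was -1.77, with a range from Cyp2e1 (-4.47) to Apob (-0.14). The transferase median of -1.51 lay 0.26 above that of the hepatocyte markers there. For treated TMX-null against treated WT liver it was -1.46 where the hepatocyte median was -0.97, and for the difference of responses -1.38 where the hepatocyte median was -0.57. In treated WT liver the hepatocyte median was -0.22, with 3 of 10 lower, against 1.75% of all named genes. In untreated TMX-null liver it was -0.28, with 0 lower, against 0.835%. The part of hepatocyte content in the transferase values was not tested, and fewer cells of a type and less RNA per cell cannot be told apart in whole liver. Macrophage markers, whose cells express Hmox1, had medians of 1.45 in treated TMX-null, 1.16 in treated WT and 0.79 in untreated TMX-null liver, and ranged from Csf1r (-0.19) to Marco (4.10) in treated TMX-null liver. Taken gene by gene, the differences of the 11 macrophage markers between treated TMX-null and treated WT liver had a median of 0.20. Cd68 (1.64) was the one at 2-fold, where 9.64% of all named genes were 2-fold higher. In the same comparison the monocyte markers Ccr2 and S100a4 differed by 2.14 and 4.74 and the neutrophil markers S100a8, S100a9, Ltf and Ly6g by 2.85, 2.65, 0.10 and -1.61, where Hmox1 differed by 3.15. Their part in the Hmox1 value was not tested.

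Markers of other cells were few. Monocyte markers in treated TMX-null liver lay between Ccr2 (4.18) and Chil3 (8.11), with 3 of 5 measured. Of the 4 measured neutrophil markers 3 were at least 2-fold higher, up to S100a9 (4.45), and Ly6g at least 2-fold lower. Over all named genes 13.6% were higher and 13.2% lower there. Stellate cell markers had a median of 1.31 and cholangiocyte markers one of 0.35 in that liver, and sinusoidal endothelial markers one of 0.41. T and NK cell markers had a median of 0.79 and B cell markers one of 1.03, and the single red cell marker measured, Alas2, stood at -0.92. Their part in the other members' values was not tested either. Ratios do not give levels, so the presence of a marker could not be checked.

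**Figure D5:**
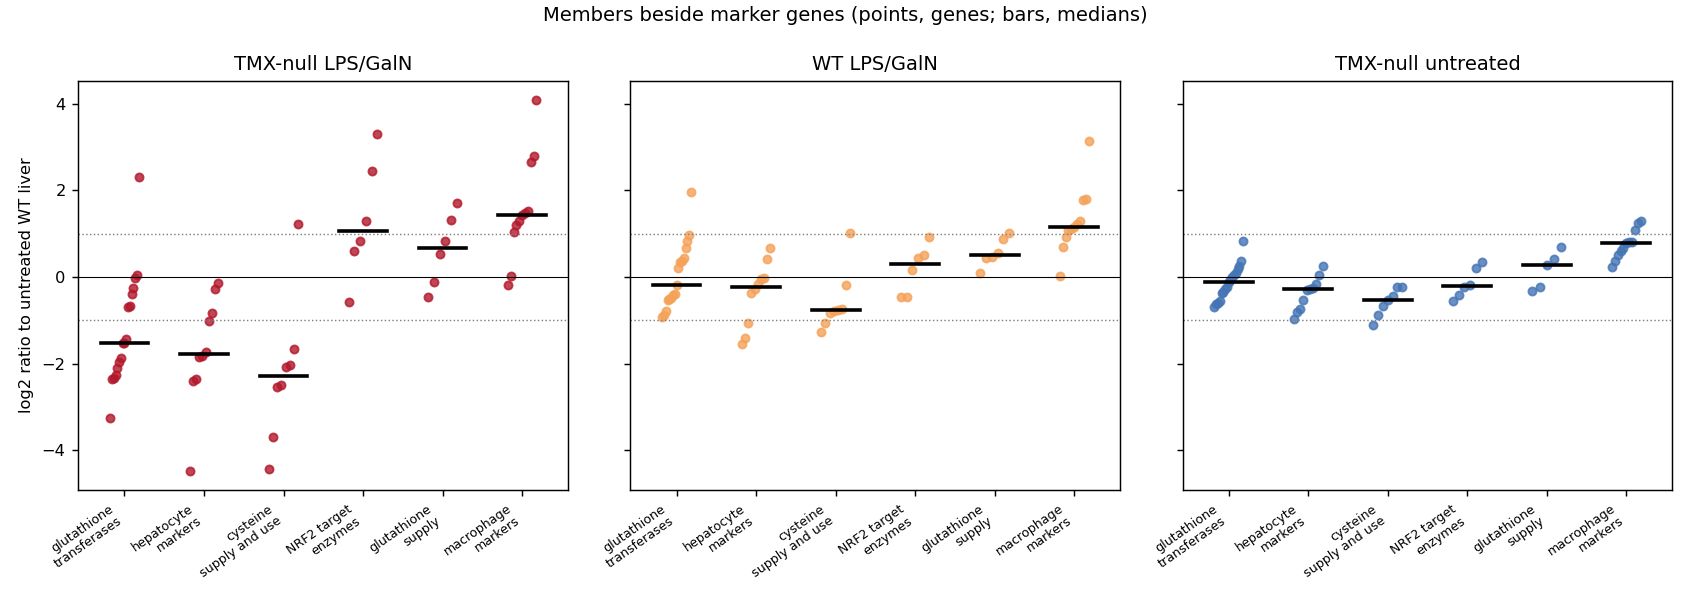
Points are genes and black bars medians of log2 ratios to untreated WT liver, for treated TMX-null (left), treated WT (middle) and untreated TMX-null liver (right), with dotted lines at 2-fold. In the left panel transferases (median -1.51), hepatocyte markers (-1.77) and cysteine genes (-2.28) lie low, and NRF2 target enzymes (1.07), supply genes (0.68) and macrophage markers (1.45) lie higher.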

How the data were processed

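RNA of mouse liver was labelled and hybridised to 3 two-colour arrays with a common reference, untreated wild-type liver in Cy5, per the labels. A single table of log ratios was deposited by the authors and is taken as log2. No label or header names the base, the numerator, the background correction or the normalization. Deposited medians were -7.1e-06 (treated wild-type), -6.9e-05 (untreated TMX-null) and 1.1e-04 (treated TMX-null), so arrays were centred before deposit. Of 23473 rows, 13674 had a value on all arrays; pairs of arrays correlated with r from 0.40 to 0.54 over rows.

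GEO's platform annotation gave 16631 rows 1 symbol, 0 several and 6842 none. Through RefSeq synonyms (GRCm38.p6), 12622 symbols were current, 3947 renamed and 62 kept. Probes of a gene were averaged (86 of 10179 genes), and each array was centred on its median over these genes. Differences between arrays were taken per gene. There were no replicates, so no test was run; the number of arrays limits the precision. Counts use 2-fold. The calculation recovered known differences in simulated data. Those differences were well past 2-fold and their noise was below the SD of a probe here, so this checked the arithmetic only. Python 3.11.15, pandas 2.3.3 and numpy 2.4.6 were used.

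The members and lists were chosen with earlier results of these data known. All members are named; members at 2-fold in any comparison are given on every array, and other lists by count with their extremes. Alternatives were the centring, the spread of the arrays, the probe taken, the fold, the genes centred on, the logarithm, the symbols and the untreated liver used.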

Additional observations from a re-analysis of the deposited data

Results flagged for a closer look

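Treated over untreated liver pointed in opposite directions in the 2 genotypes for 5 members, each by more than the SD of a single probe. The difference was not tested, since each value rests on 1 or 2 arrays. How many of all named genes did the same was not counted, so the 5 are not read as a trait of the members. Srxn1 stood at 3.00 in TMX-null and -0.46 in WT liver, a difference of 3.45. Nqo1 stood at 1.02 in TMX-null and -0.46 in WT liver, a difference of 1.48. In the other direction, Gstm4 stood at -0.77 in TMX-null and 0.83 in WT liver, a difference of -1.60, and Gstm1 at -1.14 in TMX-null and 0.44 in WT liver, a difference of -1.58. Gclm stood at -0.73 in TMX-null and 0.47 in WT liver, a difference of -1.20. Set against untreated TMX-null liver, treated WT liver stood at 0.10 for Srxn1, -0.04 for Nqo1 and 0.20 for Gclm, all within the SD of a probe (0.38), and at 0.74 for Gstm4 and 0.81 for Gstm1.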

How the results depend on the processing

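No paired analysis was possible because each group is 1 array. Of 148 role medians recomputed under the alternatives, 143 moved by less than the SD of a single probe, and 72 of 98 counts of members stayed within 1.5 times. Equal spread of the arrays moved the most. With it the transferase median was -0.46 for treated against untreated TMX-null liver and -0.71 for the difference of responses, and the supply median was -0.26 for treated TMX-null against treated WT liver and -0.98 for the difference of responses. Counts with equal spread, each followed by the share of all genes, were 6 higher (5.84%) and 3 lower (4.19%) in treated WT liver, 2 higher (5.9%) and 1 lower (4.52%) in untreated TMX-null liver, 6 lower (7.39%) for treated against untreated TMX-null liver, 2 higher (4.38%) for treated TMX-null against treated WT liver, and 4 higher (10.5%) and 8 lower (12.6%) for the difference of responses. Read as natural logarithms, the table gave a transferase median of -2.11 for treated TMX-null against treated WT liver, 6 higher (7.07%) and 3 lower (5.24%) members in treated WT liver, and 1 higher (4.75%) and 1 lower (3.44%) in untreated TMX-null liver. Treated WT liver had 1 higher member without further centring (2.41%) and 1 centred over all named genes on the array (6.18%). At 1.5-fold there were 7 higher (9.78%) and 3 lower (8.17%) in treated WT liver, 2 higher (6.98%) and 3 lower (5.56%) in untreated TMX-null liver, and 7 higher (21.1%) for treated TMX-null against treated WT liver. At 3-fold there was 1 higher (0.501%) in treated WT liver; 3 higher (4.23%) and 7 lower (4.81%) for treated against untreated TMX-null liver; 2 higher (3.12%) and 8 lower (4.42%) for treated TMX-null against treated WT liver; and 3 higher (3.07%) and 7 lower (4.51%) for the difference of responses. Of 925 values of single members 10 changed sign, none of them at 2-fold in the reported value. The causes were not tested. No signal over background was at hand, so dim members cannot be told from bright ones.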

Other observations

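G6pd2, an intronless copy of G6pdx, was chosen after its values were seen, because G6pdx itself matched no row. It stood at 2.75 in treated TMX-null, 1.21 in treated WT and 0.56 in untreated TMX-null liver. The copies are similar, and its probe may not separate them.

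Gstt4, a theta transferase outside the members, stood at 1.54 in treated WT and 1.74 in untreated TMX-null liver and was blank in treated TMX-null liver. It lay above 0 where its measured theta neighbours lay near or below it.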
